A study of Mus musculus with 12 samples.

Results

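The erythroid lineage genes are 9 genes whose products act in red blood cell formation. They are the transcription factors Gata1 and Klf1, the heme synthesis enzyme Alas2, the membrane and surface proteins Slc4a1, Ermap and Rhd, the carbonic anhydrases Car1 and Car2, and the transferrin receptor Tfrc. They were chosen by name for these roles, and each was read from the probe set that carries its symbol and no other. All 9 had exactly 1 such probe set, so they account for 9 of 35474 probe sets and 9 of the 19935 genes with a symbol of their own.

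The study measured RNA of hematopoietic stem cells (HSCs), which reside in the bone marrow and can renew every blood lineage, on 12 arrays. The cells had the phenotype CD150+ CD48- c-kit+ Sca-1+ lineage- and went straight into lysis reagent in lots of 5000 to 7000. The 4 groups were E2-treated males, oil-treated males, E2-treated females and oil-treated females, with 3 arrays from 3 mice in each. E2 is estradiol, the main estrogen, of which a mouse received 2 µg under the skin in 100 µL of corn oil, and the oil groups received 100 µL of corn oil alone. All mice were young adults of 2 to 3 months, so age, vehicle and sorting scheme were shared by all groups. No transgene or mutation is named in the labels, and the labels state neither the strain nor how long treatment lasted. The comparison of E2 with oil asks whether stem cells take on red cell gene expression under estrogen.

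Red cell formation starts when a stem cell gives rise to progenitors of the megakaryocyte and erythroid lineages. Gata1 then switches on a program of erythroid genes together with cofactors and with Klf1, and its targets include the enzymes of heme synthesis, the globins and the proteins of the red cell membrane. Maturing erythroid cells take up iron through the transferrin receptor, and stem cells carry low levels of many of these transcripts before commitment.

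Many promoters of erythroid genes hold GATA words, the short sequences that GATA factors bind. Of the 9 genes, 6 had an entry in a RefSeq table of promoters (build GRCm38.p6). Klf1, Ermap, Rhd and Alas2 held a GATA word (the letters GATA with A or T before them and A or G after them, on either strand) within the 250 bases before the annotated start, as did 26.5% of all 32851 promoters in the table. These 4 sequences are shown because 3 of the genes moved together from array to array, as described further on. They are written 5′ to 3′ on the strand of the gene, with the GATA word in capitals. The Klf1 window is chr8:84901732-84901981 (plus strand), and its word ends 75 bases before the start. The Alas2 window is chrX:150547167-150547416 (plus strand), with the word ending 81 bases before the start. The Rhd window is chr4:134864286-134864535 (plus strand), with the word ending 38 bases before the start. The Ermap window is chr4:119189996-119190245 (minus strand), with the word ending 62 bases before the start.
Klf1: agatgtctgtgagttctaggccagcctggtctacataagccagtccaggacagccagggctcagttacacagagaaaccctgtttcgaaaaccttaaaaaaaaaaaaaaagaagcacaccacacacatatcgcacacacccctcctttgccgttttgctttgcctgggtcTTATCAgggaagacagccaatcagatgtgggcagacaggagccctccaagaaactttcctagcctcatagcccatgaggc
Alas2: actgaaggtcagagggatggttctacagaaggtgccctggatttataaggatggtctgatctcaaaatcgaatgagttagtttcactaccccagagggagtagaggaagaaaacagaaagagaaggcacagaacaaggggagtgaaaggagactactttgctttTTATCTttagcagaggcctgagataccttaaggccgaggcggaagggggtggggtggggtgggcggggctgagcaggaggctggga
Rhd: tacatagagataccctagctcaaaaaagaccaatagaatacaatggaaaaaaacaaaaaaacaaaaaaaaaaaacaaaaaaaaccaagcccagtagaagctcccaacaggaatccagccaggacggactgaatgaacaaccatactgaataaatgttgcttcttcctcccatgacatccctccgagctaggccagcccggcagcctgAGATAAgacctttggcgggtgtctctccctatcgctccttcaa
Ermap: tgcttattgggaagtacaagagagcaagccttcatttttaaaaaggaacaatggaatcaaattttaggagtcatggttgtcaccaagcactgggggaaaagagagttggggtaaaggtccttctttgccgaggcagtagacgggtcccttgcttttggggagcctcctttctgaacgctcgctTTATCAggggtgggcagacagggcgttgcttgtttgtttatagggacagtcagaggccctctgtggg

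The promoters of Gata1 and Tfrc held no GATA word in this window. A CACCC word, the kind that Klf1 binds (CCNCACCC or CCNCGCCC on either strand), was present for Gata1, Alas2 and Tfrc, and in 31.7% of all promoters. The Alas2 promoter held 3 such words, 2 of which overlap. The full palindrome of the estrogen response element, to which the estrogen receptor binds, was found on either strand for 0 of the 6 genes and in 0.0639% of all promoters. A match is a description of the letters in this window. Car1, Car2 and Slc4a1 had no entry.

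The values are linear intensities that depend on each probe set, so a level is compared between arrays and never between genes. The median of an array lay between 143 and 159 and its upper quartile between 368 and 385. As a check of the sex labels, Xist, which is transcribed from the inactive X chromosome, gave 3417 to 3897 on female and 61.9 to 73.0 on male arrays. Of 10 HSC markers, 8 had a probe set of their own and all 8 lay above the filter on dim genes, among them Kit, Procr and Slamf1. Cd48, which the sort selects against, read 62.8 to 116 and lay below the filter. That filter is a mean log2 value above 7.52, or an intensity of 182, the median of all genes. It left 9967 genes and kept 4 of the 9 erythroid genes, namely Gata1, Car1, Car2 and Tfrc. Klf1, Alas2, Slc4a1, Ermap and Rhd lay below it, where little separates a transcript from background, and for these the test was a fit on all 19935 genes.

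Gata1 is the zinc finger factor without which red cells and platelets do not mature. It read 172, 184 and 225 on the arrays of E2-treated males, against 239, 239 and 239.8 on those of oil-treated males. In females Gata1 read 231, 237 and 195 under E2, against 225, 257 and 288 under oil. In males all 3 E2 arrays were lower than all 3 oil arrays, and in females the groups overlapped. The estimated log2 fold change was -0.31 in males (standard error 0.12) and -0.21 in females (standard error 0.12). Averaged over the sexes it was -0.26, with a 95% interval of -0.44 to -0.08, and limma's adjusted p of 0.0678 missed the threshold of 0.05. Without the third E2-treated male array the adjusted p was 0.0364, and without the first oil-treated female array it was 0.0434. The other 10 fits that left out an array gave adjusted p values of 0.0597 to 0.153.

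Klf1 is a zinc finger factor of the erythroid lineage that activates the adult beta globin gene. It read 54.5, 66.7 and 79.7 in E2-treated males, against 57.6, 66.8 and 89.9 in oil-treated males. In females it read 69.4, 101 and 122 under E2, against 130, 104 and 82.9 under oil. The groups overlapped in both sexes, and arrays within a group differed more than the groups did. The averaged log2 fold change was -0.11 with a 95% interval of -0.45 to 0.24 (limma, adjusted p = 0.827 in the fit on all genes).

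Alas2 encodes the erythroid form of the enzyme that starts heme synthesis. It read 121, 111 and 139 in E2-treated males, against 116, 123 and 183 in oil-treated males. In females Alas2 read 139.7, 159.6 and 159 under E2, against 179, 144 and 121 under oil. The E2 arrays lay within the span of the oil arrays in females, and 1 oil array stood above the rest in males. The averaged log2 fold change was -0.05 with a 95% interval of -0.32 to 0.22 (limma, adjusted p = 0.908).

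Slc4a1 encodes band 3, the chloride and bicarbonate exchanger that also anchors the red cell skeleton. It read 104, 123 and 151 in E2-treated males, against 135, 109 and 192 in oil-treated males. In females Slc4a1 read 138, 196 and 237 under E2, against 251, 146 and 106 under oil. The highest and the lowest female array both belonged to the oil group. The averaged log2 fold change was 0.03 with a 95% interval of -0.42 to 0.48 (limma, adjusted p = 0.966).

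Ermap, a surface protein of the immunoglobulin superfamily on erythroid cells, read 153, 146 and 156 in E2-treated males, against 189, 164 and 180.4 in oil-treated males. In females it read 143, 238 and 165 under E2, against 218, 199.8 and 178 under oil. All E2 arrays were lower than all oil arrays in males, and in females the highest and the lowest array were both E2 arrays. The averaged log2 fold change was -0.19 with a 95% interval of -0.43 to 0.05 (limma, adjusted p = 0.444). Rhd, a protein of the Rh complex of the red cell membrane, read 61.3, 65.3 and 77.7 in E2-treated males, against 64.7, 65.5 and 72.8 in oil-treated males. In females Rhd read 54.9, 74.7 and 91.3 under E2, against 105, 90.03 and 57.3 under oil. The groups overlapped in both sexes, and the averaged log2 fold change was -0.09 with a 95% interval of -0.41 to 0.24 (limma, adjusted p = 0.852).

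Car1 and Car2 encode carbonic anhydrases, which convert carbon dioxide and water to bicarbonate. Car1 read 115, 174 and 191 in E2-treated males, against 178, 100 and 474 in oil-treated males. In females Car1 read 249, 687 and 288 under E2, against 679, 320.3 and 145 under oil. Car1 spread most of the 9 genes, by up to 4.74 times within oil-treated males, and the averaged log2 fold change of -0.08 had a 95% interval of -0.96 to 0.79 (limma, adjusted p = 0.926). Car2 read 2072, 1925 and 2173 in E2-treated males, against 1876, 1856 and 1863 in oil-treated males. In females Car2 read 1942, 2045 and 2306 under E2, against 1940, 2029 and 1834 under oil. Car2 was the steadiest of the 9, with all E2 arrays above all oil arrays in males and overlap in females. Its averaged log2 fold change was 0.13 with a 95% interval of -0.01 to 0.26 (limma, adjusted p = 0.221).

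Tfrc encodes transferrin receptor 1, which carries iron into dividing cells of every kind and into erythroblasts in large amounts. It read 317, 430.4 and 467 in E2-treated males, against 285, 312 and 312 in oil-treated males. In females Tfrc read 407, 388 and 352 under E2, against 378, 276 and 276 under oil. Every E2 array of males was above every oil array, and in females 1 oil array lay within the span of the E2 arrays. Tfrc averaged 405 ± 78.1 in E2-treated males and 303 ± 15.8 in oil-treated males, and 382 ± 28.2 in E2-treated females and 310.2 ± 59.0 in oil-treated females (SD, n = 3 each). Averaged over the sexes Tfrc rose 1.28-fold, a log2 fold change of 0.36 with a 95% interval of 0.13 to 0.58 and an adjusted p of 0.0491 by limma. In males alone the log2 fold change was 0.40 (adjusted p = 0.222), and in females alone it was 0.31 (adjusted p = 0.272), both by limma. The call rests close to the threshold. Limma's adjusted p stayed under 0.05 in 7 of the 21 other settings that refit the averaged comparison, lay between 0.0148 and 0.125 over all of them, and was 0.11 in the fit on all genes. It held without the first E2-treated male, the first oil-treated female or the third E2-treated female array, and was lost, at 0.0731 to 0.125, without any of the other 9. The direction was the same in all 21.

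**Figure D1:**
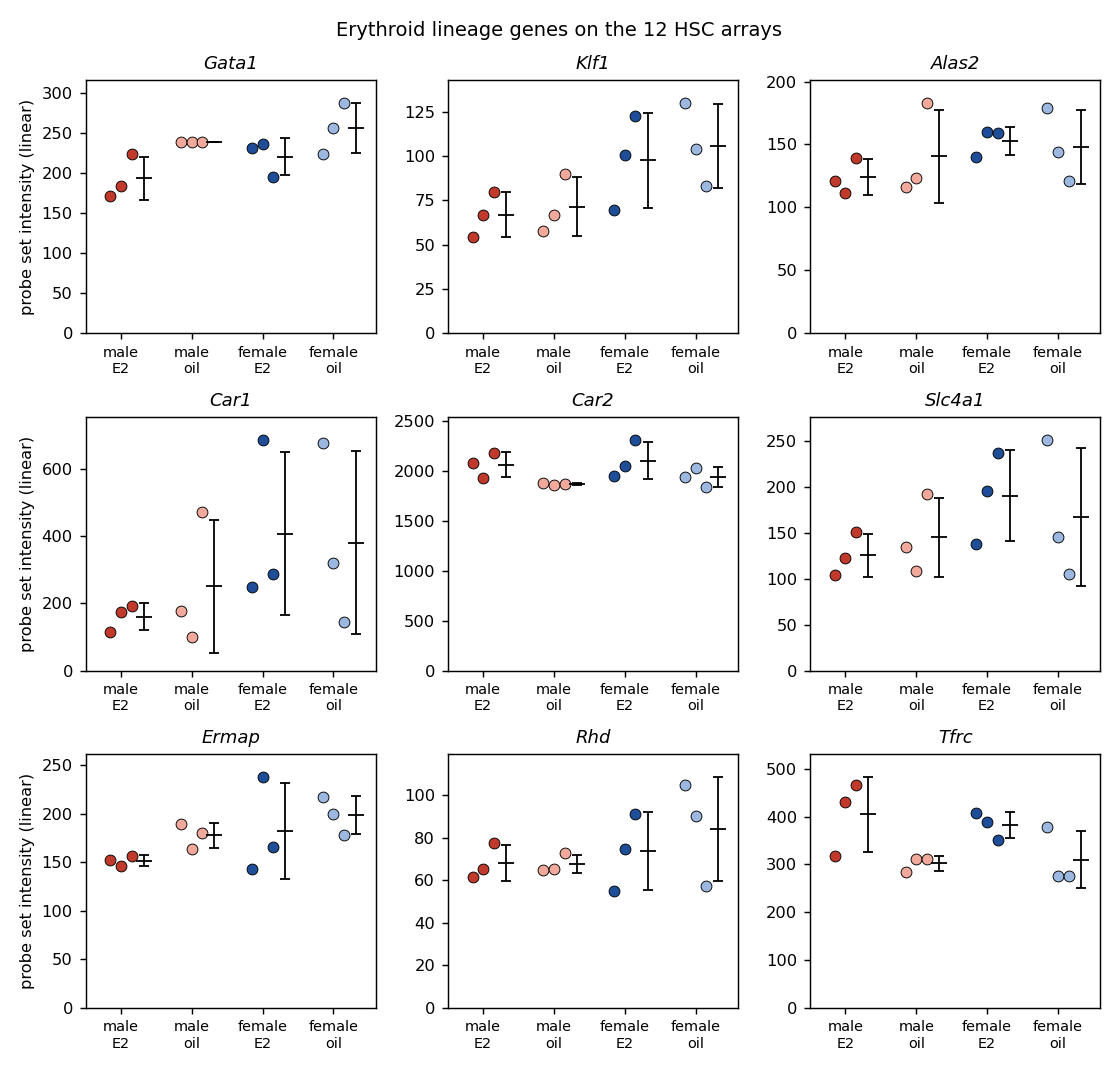
Linear probe set intensity of each of the 9 genes on every array (vertical axis, starting at 0), with points for arrays in the order of replicate numbers and bars for the group mean ± SD (n = 3). Groups run from E2-treated males to oil-treated females, and the 3 E2-treated male points of Tfrc, at 317 to 467, lie above the oil-treated male points, at 285 to 312.

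Counted over the 9 genes, limma called 0 in males, where 1.43% of the 9967 genes tested were called, and 0 in females, where 3.56% were called. Averaged over the sexes it called 1 of 9, Tfrc, against 8.9% of all genes tested. In the fit on all 19935 genes it called 0 of 9 in each of the 3 comparisons, against 0.401% in males, 0.918% in females and 2.85% for the average. At an unadjusted limma p under 0.05 there were 2 genes in males (Gata1 and Tfrc), 0 in females and 2 for the average. For Gata1, Car1, Car2 and Tfrc this p came from the fit on genes above the filter. In the fit on all genes 9.04%, 14.2% and 15.7% of all genes were past that mark. Arrays of E2-treated and oil-treated males did not overlap for 4 of 9 genes, where 18.1% of all genes behaved so, and 2 of the 4 were lower (Gata1, Ermap; 9.59% of all genes) and 2 higher (Car2, Tfrc; 8.55%). In females 0 of 9 were free of overlap, against 17.2% of all genes, and 0 of 9 were free of overlap in the same direction in both sexes, against 4.27%. The median log2 fold change of the 9 was -0.16 in males, 0.06 in females and -0.08 for the average, beside -0.01, 0.03 and 0.01 over all genes. For the average 3 of 9 estimates were positive and 6 were negative, where 54.4% of all 19935 genes were positive. In these bulk samples fewer cells of a type and less RNA per cell cannot be told apart.

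**Figure D2:**
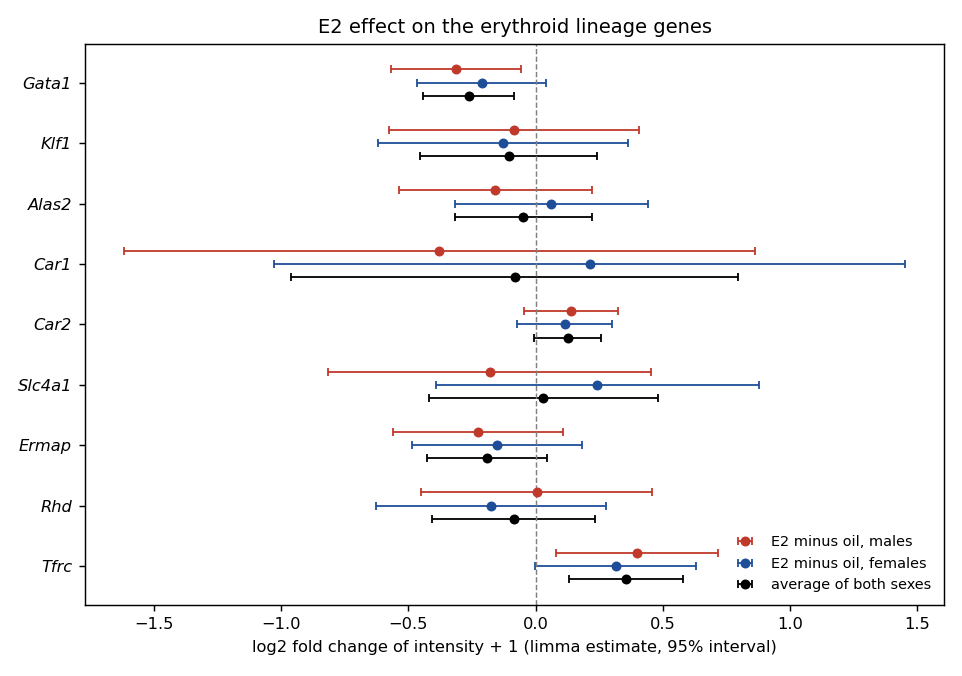
Log2 fold change of E2 over oil (horizontal axis) for the 9 genes, as limma estimates in each sex and for the average of both sexes, with 95% intervals. The averaged interval of Tfrc runs from 0.13 to 0.58 and that of Gata1 from -0.44 to -0.08, while the interval of Car1 spans -0.96 to 0.79.

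Tfrc is also expressed in proliferating cells, so genes of replication and growth are given beside it. Of 32 genes of S phase and DNA replication, 30 lay above the filter, of which 7 rose, 0 fell and 23 passed in neither direction in the averaged comparison, where 3.12% of all genes tested were called higher. Their median log2 fold change was 0.35 beside -0.01 over all genes tested. Within a sex limma called 0 of the 30 in males and 1, Tk1, in females, with 17 and 11 at an unadjusted p under 0.05. Over all genes tested 1.43% were called in males and 3.56% in females. In the fit on all genes 9.04% and 14.2% had an unadjusted limma p under 0.05. The called genes were Tk1 (0.50, adjusted p = 0.00815), Uhrf1 (0.58), Pole (0.56), Cdc6 (0.76), Fen1, E2f1 and Mcm5, by limma. Of 11 genes of Myc and growth, Srm, a polyamine enzyme, rose by 0.42 and Cad, an enzyme of pyrimidine synthesis, by 0.32, and 9 passed in neither direction. Within a sex limma called 0 of the 11, with 7 in males and 0 in females at an unadjusted p under 0.05, beside the same shares over all genes. Nop56 had 0.27 (adjusted p = 0.0679) and Odc1 0.23 (adjusted p = 0.0876), and Myc itself had -0.07 (adjusted p = 0.628) by limma. The mean centred log2 level of the S phase list was 0.15, 0.36 and 0.22 in E2-treated males, against -0.09, -0.27 and -0.12 in oil-treated males. In females it was 0.58, -0.08 and -0.14 under E2, against 0.02, -0.41 and -0.22 under oil. In females the array highest for replication genes was also highest for Tfrc in each group, at 407 under E2 and 378 under oil. In males it was not, since the second E2-treated male array was highest for replication genes and the third for Tfrc. The oil-treated male array highest for replication genes had the lowest Tfrc of its group, 285. The part of these lists in the Tfrc result was not tested.

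Between the sexes, 0 of the 9 genes were called. Under oil all 9 estimates of female minus male were positive, where 47.7% of all 19935 genes were, from 0.02 for Tfrc to 0.63 for Car1 on the log2 scale, with 0 called where limma called 0.0401% of all genes, and 1 at an unadjusted p under 0.05, against 4.21%. Under E2, 8 of 9 were positive, where 53.9% of all genes were, with 0 called where 0.01% of all genes were, and 1 at an unadjusted p under 0.05, against 7.66%. Several of the 9 genes vary together over the same arrays, as given further on, so these signs are not independent. The female and male arrays were free of overlap for 0 of 9 genes under oil, against 10.7% of all genes. Under E2 they were free of overlap for 2 of 9, Car1 and Alas2, both higher in females, against 12.6% of all genes. Car1 read 249 to 687 in E2-treated females and 115 to 191 in E2-treated males, a log2 difference of 1.22 with a 95% interval of -0.02 to 2.46 and an adjusted p of 0.558 by limma. Klf1 differed by 0.56 under oil (unadjusted p = 0.0289, adjusted p = 1) and by 0.51 under E2 (unadjusted p = 0.0415, adjusted p = 0.633) in limma's fit on all genes. The female response minus the male response was between -0.18 for Rhd and 0.59 for Car1, with 0 of 9 called, against 0.01% of all genes tested, and a lowest adjusted p of 0.965 by limma. The fit on all 19935 genes called 0 of 9 in each of these 3 comparisons, against 0.0351% under oil, 0.0201% under E2 and 0.00502% for the difference of responses. For the difference of responses 0 of 9 had an unadjusted limma p under 0.05, against 5.05% of all genes. In the counts by unadjusted p between the sexes, Gata1, Car1, Car2 and Tfrc took theirs from the filtered fit. The shares beside those counts are from the fit on all genes. For Tfrc the difference of responses was -0.08 with a 95% interval of -0.53 to 0.36, and for Gata1 it was 0.10 with an interval of -0.26 to 0.46. These comparisons reuse the same 4 groups as those of E2 with oil.

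Within groups, a subset of the 9 genes varied together from mouse to mouse. The pooled SD of log2 values within groups was 0.91 for Car1, 0.44 for Slc4a1, 0.34 for Klf1, 0.31 for Rhd and 0.25 for Alas2, against 0.21 for Ermap and Tfrc, 0.15 for Gata1 and 0.09 for Car2. Each array's deviation from its group mean was correlated over the 12 arrays for all 36 pairs of genes, with exact permutation tests over the 1296 relabellings within groups, which allow no p under 0.000772. After adjustment over the 36 pairs 6 had p under 0.05, and these were all the pairs among Klf1, Slc4a1, Rhd and Alas2. Pairs of genes outside the 9 were not correlated in this way. How often such pairs vary together on these arrays is therefore not known. Pearson's r was 0.894 for Klf1 with Slc4a1 (adjusted p = 0.0333, exact permutation) and 0.885 for Klf1 with Rhd (adjusted p = 0.0278, exact permutation). It was 0.883 for Rhd with Slc4a1, 0.851 for Slc4a1 with Alas2, 0.817 for Klf1 with Alas2 and 0.701 for Rhd with Alas2, with adjusted p values of 0.0333 to 0.0463 by the exact permutation test. Spearman's rho for these 6 pairs was 0.769 to 0.916, and 2 of the 6 had an adjusted p under 0.05 by rank (0.0416 each, exact permutation). Without the 2 arrays farthest from the median of the first gene, r was 0.880 for Klf1 with Slc4a1, 0.820 for Klf1 with Rhd and 0.635 for Rhd with Alas2.

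Car1 tracked Slc4a1 (r = 0.833, rho = 0.867) and Alas2 (r = 0.826, rho = 0.818), but with adjusted p values of 0.0765 and 0.0924 in the exact permutation test. Gata1 is known to activate these genes, and its r with them was below 0, at -0.237 with Klf1, -0.195 with Alas2, -0.372 with Slc4a1 and -0.435 with Rhd, with adjusted p values of 0.507 to 0.680 by exact permutation. Tfrc had r of 0.360 to 0.515 with those 4 genes and passed with 0 of them. Of the 4 genes that moved together, Klf1, Rhd and Alas2 carry the GATA words in the promoters shown above, and Slc4a1 had no promoter entry. Ermap carries a GATA word too, and its r with the 4 genes was 0.391 to 0.487 (adjusted p = 0.254 to 0.601, exact permutation). Of all promoters 26.5% held such a word, and its part in the pattern was not tested. All 4 genes that moved together lie below the filter on dim genes, and their levels share an array's RNA, amplification and normalization.

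The pattern ran over most arrays. On 5 arrays all 4 genes lay above their group means, namely the third E2-treated male, the third oil-treated male, the second and the third E2-treated female and the first oil-treated female array. On 5 arrays all 4 lay below, and on 2 they lay on both sides. Globin probe sets, which are shared by several globin genes and so are left out of the 9967 genes tested, varied along with them. For each chain the probe set listed first was used, and a second is given in the closing section. With the alpha globin probe set r was 0.945 for Klf1, 0.896 for Slc4a1, 0.875 for Rhd, 0.770 for Alas2 and 0.789 for Car1, with adjusted p values of 0.00463 to 0.0278 over 18 pairs (exact permutation). With the beta globin probe set r was 0.905 for Klf1, 0.886 for Slc4a1, 0.797 for Rhd, 0.901 for Alas2 and 0.803 for Car1, with adjusted p values of 0.00463 to 0.043 (exact permutation). Granulocyte markers are given beside this pattern. Of 9 such markers all 9 had a probe set and 8 lay above the filter, and the mean centred log2 level of these 8 was -0.76, -0.23 and 0.04 in E2-treated males, against -0.67, -0.14 and 0.83 in oil-treated males. It was -0.87, 0.04 and 0.66 in E2-treated females, against 1.32, -0.05 and -0.17 in oil-treated females. The array with the highest level in each group was among the 5 on which all 4 genes lay above their group means. Summed over the 9 markers the level was 7268 to 13250 in E2-treated males, 7839 to 16790 in oil-treated males, 5357 to 14610 in E2-treated females and 9369 to 21480 in oil-treated females. The part of other cell types in this pattern was not tested.

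**Figure D3:**
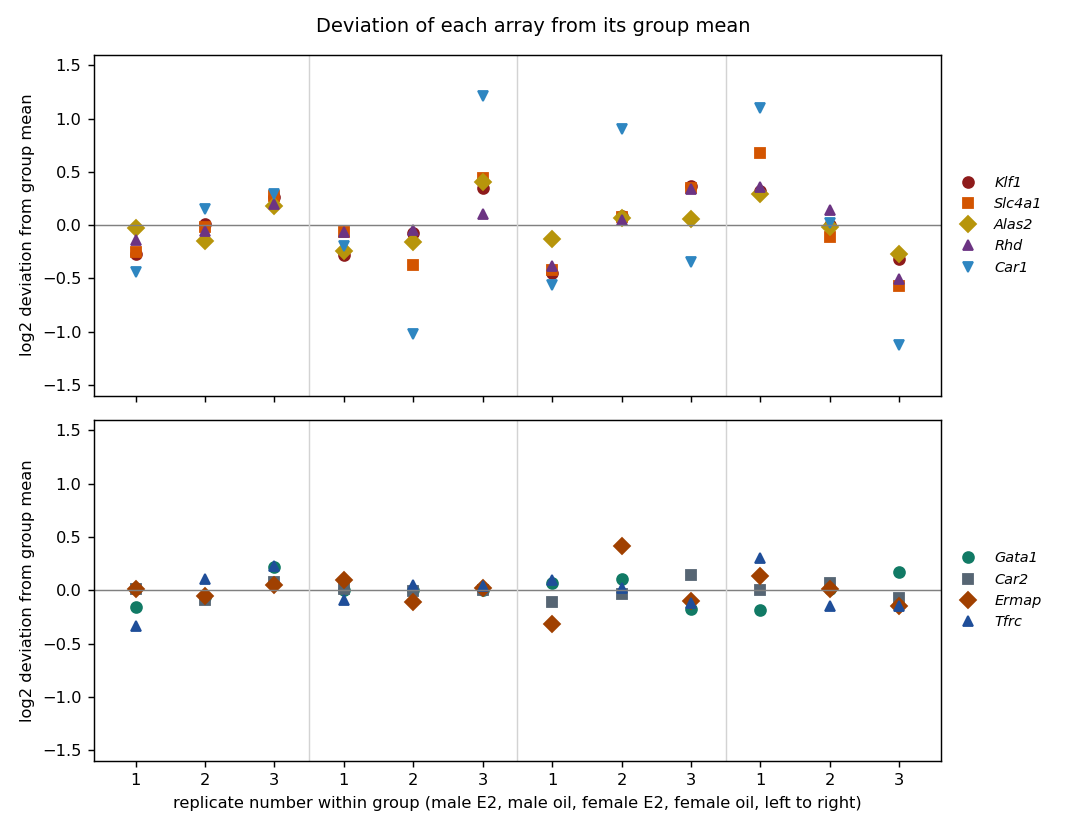
Log2 deviation of each array from the mean of its group (vertical axis) for the genes that spread most within groups (upper panel) and for Gata1, Car2, Ermap and Tfrc (lower panel), with grey lines between the groups. In the upper panel the points of Klf1, Slc4a1, Alas2 and Rhd rise and dip together, as on the first oil-treated female array, where they lie at 0.32, 0.68, 0.29 and 0.36.

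The wider erythroid program was read from lists of genes grouped by role, 154 genes in all, of which 86 lay above the filter. The lists include the 9 genes themselves and whole families, with 16 carbonic anhydrase genes and 4 genes of the Rh family. In the averaged comparison 5 rose, 18 fell and 63 passed in neither direction, against 3.12% higher and 5.78% lower among all genes tested. Without the 9 genes, 82 lay above the filter, of which 4 rose and 18 fell. In males 1 rose and 3 fell, where limma called 1.43% of all genes tested, and in females 1 rose and 13 fell, where it called 3.56%. The 4 calls in males became 2 without replicate 2 or 3 of the oil-treated males or replicate 1 or 3 of the E2-treated males, and 9 without the first E2-treated female array. The 14 calls in females became 9 without the first or second E2-treated male array, and 5, 2 and 4 without replicates 1, 2 and 3 of the oil-treated females.

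The list of transcription factors and cofactors held the largest number of calls. Of 24 genes 20 lay above the filter, and in the averaged comparison 0 rose, 9 fell and 11 passed in neither direction by limma. The median log2 fold change was -0.22, beside -0.01 over all genes tested, and 18 of 20 estimates were negative. Over all genes tested 5.78% were called lower, and 46.7% had a positive estimate. Sox6, a factor of terminal red cell maturation, read 163.3, 181.5 and 167 in E2-treated males, against 306, 309 and 303.3 in oil-treated males. In females Sox6 read 139, 163 and 139.7 under E2, against 292, 296 and 305 under oil. The groups were far apart in both sexes, and Sox6 fell by 0.93 on the log2 scale (standard error 0.06, limma adjusted p = 1.8e-06). All E2 arrays of Sox6 lay under the filter intensity of 182, and its oil arrays brought its mean above the filter. Under that level little separates a transcript from background. Cbfa2t3, a corepressor in complexes of Tal1, fell by 0.50 (adjusted p = 0.00236). With its probe sets averaged, in place of the brightest one, the log2 fold change of Cbfa2t3 was -0.23 (limma adjusted p = 0.0662), and in females alone -0.19 (adjusted p = 0.36) against -0.56 (adjusted p = 0.0203) from the brightest. Tal1, which nucleates the complexes that Gata1 joins, fell by 0.40 (adjusted p = 0.00447). Gata2, the GATA factor of stem and progenitor cells, fell by 0.38 (adjusted p = 0.0053), and Zfpm1, the cofactor FOG1 of GATA factors, fell by 0.43 (adjusted p = 0.0103). Runx1 fell by 0.26, Gfi1b by 0.37, Nfe2 by 0.22 and Foxo3 by 0.25, all by limma. E2 and oil arrays did not overlap in either sex for these genes except Gfi1b, which overlapped in males. The genes were called on these same arrays, so this separation adds no support to the calls. Over all genes 18.1% were free of overlap in males, 17.2% in females and 4.27% in the same direction in both sexes. Myb, a factor of progenitor growth, had a log2 fold change of -0.21 (limma adjusted p = 0.0531).

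Most of these calls did not depend on the setting. Sox6, Tal1, Gata2, Zfpm1, Runx1 and Gfi1b stayed under an adjusted p of 0.05 by limma in all 21 other settings, Cbfa2t3 and Nfe2 in 20 and Foxo3 in 6. The count of 9 ranged from 8 to 10 when an array was left out. Within 1 sex, where 1.43% of all genes tested were called in males and 3.56% in females, the calls were fewer. They were Sox6 in males and 7 genes in females (Sox6, Gfi1b, Cbfa2t3, Nfe2, Tal1, Zfpm1 and Gata2). The female count fell to 4 without the first E2-treated male array, to 3 without the second, to 4 without the third, to 2 without the first oil-treated female array and to 1 without the second or the third. The male count was 4 without the first E2-treated female array. For the female response minus the male response limma called 0 of 20 genes, against 0.01% of all genes tested. Gfi1b had an unadjusted p under 0.05, as did 5.05% of all genes in the fit on all genes.

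**Figure D4:**
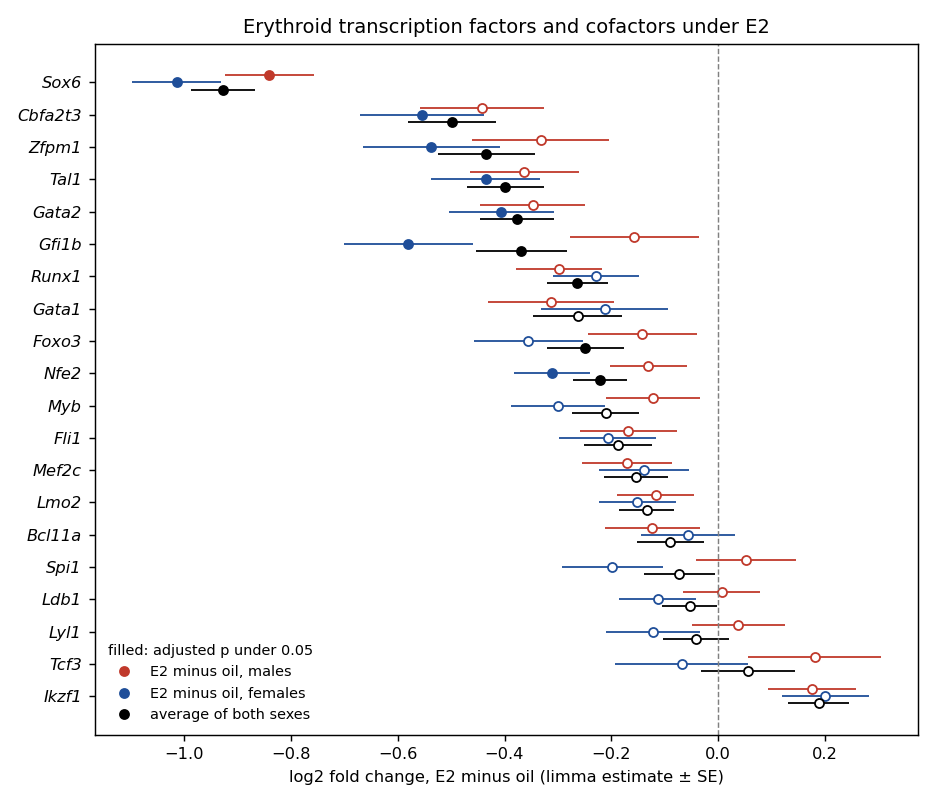
Log2 fold change of E2 over oil (horizontal axis) for the 20 transcription factors and cofactors above the filter, as limma estimates ± SE in each sex and for the average of both sexes, with filled points for an adjusted p under 0.05. Sox6 lies at -0.84 in males and -1.01 in females, and 18 of 20 averaged estimates, Gata1 among them, lie below 0.

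Several of these factors also serve megakaryocytes and stem cells, and markers of both are given here. Of 8 megakaryocyte markers with a probe set, 7 lay above the filter, and Pf4, Plek, Gp5 and Itga2b fell while Gp9 rose. Pf4, a platelet chemokine, fell by 1.40 (limma adjusted p = 6.59e-05) and Itga2b, the integrin chain CD41, by 0.44 (adjusted p = 0.00435). Summed over the 8, megakaryocyte markers were at 3062 to 3373 in E2-treated males against 3787 to 4228 in oil-treated males, and at 2342 to 3165 in E2-treated females against 3797 to 4142 in oil-treated females. Among 8 HSC markers Kit and Procr fell and 6 passed in neither direction, where 5.78% of all genes tested were called lower. Mecom had a log2 fold change of 0.13 (limma adjusted p = 0.222), and Slamf1, the CD150 of the sort, had a log2 fold change of -0.27 (limma adjusted p = 0.225). Summed HSC markers were at 8471 to 8879 in E2-treated males against 9561 to 9664 in oil-treated males, and at 7484 to 8778 in E2-treated females against 8678 to 9460 in oil-treated females. The part of these markers in the result on transcription factors was not tested.

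Genes of erythropoietin signalling gave 1 rise and 2 falls in the averaged comparison. Over all genes tested 3.12% were called higher and 5.78% lower. Epor, the erythropoietin receptor, read 149 to 165 in E2-treated males, 140 to 144 in oil-treated males, 128 to 144 in E2-treated females and 127 to 141 in oil-treated females, all below the filter, with a log2 fold change of 0.07 (limma adjusted p = 0.637). Of 13 genes above the filter Kit, the stem cell factor receptor, fell by 0.32 (adjusted p = 0.0023) and Gab1, a docking protein, fell by 0.37 (adjusted p = 0.00423), both by limma. Pim1, a kinase induced by STAT5, rose by 0.81 (limma adjusted p = 0.0036). It read 1639, 1124 and 1377 in E2-treated males, against 604, 778 and 725 in oil-treated males. In females Pim1 read 1153, 1578 and 2001 under E2, against 1007, 1182 and 786 under oil, so that the groups overlapped in females only. Jak2, the kinase bound to the receptor, had -0.20 (limma adjusted p = 0.0871).

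Iron genes moved in both directions. Of 12 above the filter Trf, Tfr2 and Ncoa4 fell and Tfrc and Slc11a2 rose in the averaged comparison. Among all genes tested 5.78% were called lower and 3.12% higher. Trf, transferrin itself, read 154, 175 and 172 in E2-treated males, against 317, 296 and 306 in oil-treated males. In females Trf read 153, 128 and 157 under E2, against 284, 291 and 282 under oil. The groups were separate in both sexes, and Trf fell by 0.92 (standard error 0.06, limma adjusted p = 4.26e-06). As for Sox6, all E2 arrays of Trf lay under the filter intensity of 182, near background, and only its oil arrays lay above it. Tfr2, the second transferrin receptor and an iron sensor, fell by 0.42 (adjusted p = 0.0092), and Ncoa4, which delivers ferritin for breakdown, fell by 0.28 (adjusted p = 0.0109), both by limma. Slc11a2, the iron transporter of endosomes, rose by 0.28 (limma adjusted p = 0.0465), a call that held in 7 of 21 other settings. Trf, Tfr2 and Ncoa4 stayed under 0.05 in all 21.

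Heme synthesis showed 1 call among 17 genes above the filter in the averaged comparison, where 8.9% of all genes tested were called. Slc48a1, a heme transporter, fell by 0.27 (limma adjusted p = 0.036, under 0.05 in 9 of 21 other settings). Alas1, the housekeeping counterpart of Alas2, had -0.35 (adjusted p = 0.0755), Blvrb had -0.29 (adjusted p = 0.0767) and Fech, which inserts iron into heme, had -0.30 (adjusted p = 0.0783), all by limma. The median of the 17 was -0.04.

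Of 10 genes of the red cell membrane and surface above the filter, 2 fell and 2 rose in the averaged comparison. The shares over all genes tested were 5.78% lower and 3.12% higher. Icam4, an adhesion molecule of erythroid cells, read 157, 154 and 175 in E2-treated males, against 205, 226 and 257 in oil-treated males. In females Icam4 read 155, 200.1 and 166 under E2, against 264, 262 and 253 under oil. It was lower under E2 on every array of both sexes, and fell by 0.54 (limma adjusted p = 0.000947). The E2 means of Icam4, 162 in males and 174 in females, lay under the filter intensity of 182. Bcam, which binds laminin, read 293, 231 and 256 in E2-treated males, against 184, 201 and 197 in oil-treated males. In females Bcam read 269, 268 and 302 under E2, against 217, 179.7 and 184 under oil. It rose by 0.47 (limma adjusted p = 0.00166) with no overlap in either sex. Gypc, glycophorin C, fell by 0.25 (adjusted p = 0.0435), and Add3, a protein of the membrane skeleton, rose by 0.24 (adjusted p = 0.046), both by limma. These 2 calls held in 8 and 7 of 21 other settings, and those of Icam4 and Bcam in all 21.

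Among the relatives of Car1, Car2 and Rhd limma called 0 genes, and 0 of those above the filter had an unadjusted p under 0.05. Of 16 carbonic anhydrase genes 7 lay above the filter, and beside Car1 and Car2 the smallest p belonged to Car7 (0.14, adjusted p = 0.323), Car9 (-0.17, adjusted p = 0.331) and Car11 (-0.12, adjusted p = 0.536) by limma. Of 4 genes of the Rh family only Rhcg lay above the filter, at 0.06 (limma adjusted p = 0.649). Of 6 genes of erythroid maturation above the filter Bnip3l, which clears mitochondria from reticulocytes, fell by 0.24 (limma adjusted p = 0.0443, under 0.05 in 5 of 21 other settings). In the averaged comparison 8.9% of all genes tested were called. Xpo7 had -0.14 (adjusted p = 0.159) and Cat, the catalase, -0.16 (adjusted p = 0.17) by limma.

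For the 4 genes above the filter, the genes whose log2 values followed them most closely over the 12 arrays were looked up among the 9966 other genes. Gata1 was followed by Casp6 (r = 0.901), Abca1 (r = 0.877) and Abcg1 (r = 0.876). Tfrc was followed by Spire1 (r = 0.923), Bysl (r = 0.914) and Bzw2 (r = 0.908). Car2 was followed by Pcp4l1 (r = 0.944), 1600014C10Rik (r = 0.941) and Helz2 (r = 0.915), and Car1 by Alkbh2 (r = 0.851), Ak4 (r = 0.846) and 1700109H08Rik (r = 0.807). Klf1, Alas2, Slc4a1, Ermap and Rhd lie below the filter, so they could not appear among these 12 genes. Over the same arrays Car1 had r of 0.868 with Slc4a1 and 0.863 with Alas2, above its r with Alkbh2. The correlations describe 12 arrays that share groups, amplification and normalization, and no test was made of them.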

How the data were processed

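RNA of sorted mouse HSCs was amplified with the NuGEN Ovation Pico WTA V2 kit and biotin-labelled, per the labels' protocols. The authors deposited 1 linear intensity per probe set and array, with 35474 probe sets on 12 arrays. How those intensities were summarised, background-corrected and normalized, and with which software, is not given in the sources used here. The number of arrays limits the precision.

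Probe sets were named through the platform annotation: 21780 carried 1 symbol, 1605 several and 12089 none. The brightest single-symbol probe set stood for each of 19935 genes, of which 19853 matched the RefSeq gene table, all 9 erythroid genes included under the same symbol. Values were log2(intensity + 1), and genes with a mean above the median of genes were tested. limma 3.58.1 in R 4.3.3 fitted 1 mean per group to all arrays, moderated by eBayes with 8 residual plus 5.38 prior degrees of freedom. P-values were adjusted by the Benjamini-Hochberg method over all genes of a comparison, and calls needed an adjusted p under 0.05. Members below the filter took their values from the same model without a filter.

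The 9 genes, the lists and the tests were chosen with earlier results of these data known. Named were the 9 genes, up to 4 genes with the smallest p of each list, and Gata2, Tal1, Epor, Myb, Gfi1b, Nfe2, Myc, Pf4, Itga2b, Slamf1 and Kit. Further called genes (Zfpm1, Runx1, Foxo3, Fen1, E2f1, Mcm5, Plek, Gp5, Gp9, Procr and the markers in the closing section) were named after their values were seen, and Mecom, the globin probe sets, the set of correlated genes and the S phase values were likewise picked then. Correlations of deviations from group means, the motif counts and the figures used Python 3.11.15 with NumPy 2.4.6, SciPy 1.17.1, pandas 2.3.3 and matplotlib 3.10.9. The steps were tested on simulated data. Alternatives changed 1 choice at a time: normalization (quantile, or median centring), the offset (16), the filter (none, or at the 25th percentile), averaging of probe sets, array weights, trended robust eBayes, the threshold (adjusted p under 0.1), fitting the compared groups alone, a replicate block, and leaving out each array.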

Additional observations from a re-analysis of the deposited data

How the results depend on the processing

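Calls near the threshold, and comparisons within 1 sex, depended most on the setting. The count of erythroid genes called for the average, 1, was 0 with median centring, no filter, a filter at the 25th percentile, array weights or the replicate block, 2 at an adjusted p under 0.1, and 0 to 2 with an array left out. For transcription factors the averaged count stayed at 7 to 13 in the other settings. In females the count of 7 was 1 without a filter or with the compared groups alone, 3 with the 25th percentile, array weights or the replicate block, and 1 to 6 with an array left out. In males the count of 1 was 5 with weights, 4 with the pair alone, 3 at an adjusted p under 0.1 and 1 to 4 with an array left out. Over all erythroid lists the 4 calls in males were 2 without a filter or with the replicate block, 11 with weights, 10 with the pair alone, 8 at 0.1 and 2 to 9 with an array left out. The 14 in females were 5 without a filter, 8 with the 25th percentile, weights or the replicate block, 2 with the pair alone, 23 at 0.1 and 2 to 18 with an array left out. The cause was not tested. Without a filter the fit covered 19935 genes in place of 9967.

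Genes called in males, 143, were 80 without a filter, 409 with weights, 390 with the pair alone, 264 at 0.1 and 62 to 327 with an array left out. In females 355 became 183, 226, 67, 657 and 115 to 549 in the same order. The averaged 887 became 568 without a filter, 1459 at 0.1 and 476 to 1147 with an array left out. Female minus male under oil, 4, became 7 (no filter, weights, pair alone; 2 to 8 by array) and under E2, 1, became 4 without a filter and 3 with the 25th percentile (1 to 17 by array). The response difference had 1 to 2 by array.

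Deviations of arrays with the same replicate number had r of -0.263 to 0.203 (median -0.039, 18 pairs). For different numbers r was -0.327 to 0.278 (median 0.036, 36 pairs). These values cannot show whether samples of the same number were handled together. The replicate block gave 103 calls in males, 258 in females and 736 for the average.

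Some estimates near 0 changed sign. The Car2 response difference was 0.033 with quantile normalization. With median centring the Ermap response difference was -0.014 and Car2 in females minus males under E2 was -0.018. With array weights Rhd in males was -0.010, the Klf1 response difference 0.028 and Tfrc in females minus males under oil -0.010. Leaving out single arrays gave these ranges of log2 values. For the average they were -0.12 to 0.053 for Alas2, -0.36 to 0.22 for Car1, -0.20 to 0.0057 for Klf1, -0.21 to 0.011 for Rhd and -0.11 to 0.20 for Slc4a1. In females they were -0.075 to 0.21 for Alas2, -0.35 to 0.76 for Car1, -0.36 to 0.0037 for Ermap, -0.31 to 0.095 for Klf1, -0.43 to 0.018 for Rhd and -0.041 to 0.58 for Slc4a1. In males they were -0.28 to 0.045 for Alas2, -0.89 to 0.23 for Car1, -0.22 to 0.092 for Klf1, -0.093 to 0.075 for Rhd and -0.37 to 0.040 for Slc4a1. For female minus male under E2 they were -0.043 to 0.080 for Car2, -0.079 to 0.28 for Rhd and -0.23 to 0.048 for Tfrc, and under oil -0.061 to 0.29 for Alas2, -0.18 to 0.44 for Slc4a1 and -0.13 to 0.095 for Tfrc. For the response difference they were -0.014 to 1.14 for Car1, -0.095 to 0.029 for Car2, -0.14 to 0.23 for Ermap, -0.23 to 0.18 for Klf1, -0.43 to 0.015 for Rhd and -0.25 to 0.067 for Tfrc. The signs of the averaged Tfrc, Gata1, Car2 and Ermap estimates were the same in all settings run.

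Limits: 5 of the 9 genes lie below the filter, where signal and background are hard to separate. A mouse is 1 array, so variation between mice and between sorts cannot be told apart.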

Other observations

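Globin transcripts were read by probe sets that carry several globin symbols, and these could not be assigned to 1 gene. The alpha globin probe set read 1294, 2052 and 2671 in E2-treated males, against 2027, 1693 and 4105 in oil-treated males. In females it read 921, 2792 and 3128 under E2, against 4308, 3399 and 1767 under oil. The beta globin probe set ranged from 2446 to 5033 over the 12 arrays. Within each sex the E2 and oil arrays overlapped for both, and the log2 fold change averaged over the sexes was -0.45 for alpha and -0.02 for beta globin, with no test. Each chain had a second probe set of this kind, which the correlations did not use. It ranged from 882 to 4105 for alpha globin (averaged log2 fold change -0.45) and from 2246 to 4919 for beta globin (-0.07). The globin genes with a probe set of their own, Hba-x, Hbb-bh1 and Hbb-y, which are active before birth, lay below the filter, at 51.6 to 90.9, 34.7 to 56.6 and 64.0 to 110 over the 12 arrays.

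Markers of other cell types were summed by list, and single genes carried some of the sums. For the calls below, 5.78% of all genes tested were called lower in the averaged comparison. In the fit on all genes 2.85% were called in that comparison, and 15.7% had an unadjusted limma p under 0.05. T and NK cell markers summed to 881 to 974 in E2-treated males against 1214 to 1420 in oil-treated males, and to 959 to 998 in E2-treated females against 1155 to 1369 in oil-treated females, and of 3 above the filter Nkg7 fell. Without Nkg7 the other 6 summed to 729 to 769 in E2-treated males against 696 to 852 in oil-treated males, and to 739 to 853 in E2-treated females against 705 to 772 in oil-treated females, ranges that overlap. Markers of committed progenitors summed to 2218 to 2257 in E2-treated males against 2516 to 2961 in oil-treated males, and to 1979 to 2305 in E2-treated females against 2561 to 3061 in oil-treated females. Of these 6 markers 3 lay above the filter, and all 3, Flt3, Cd34 and Satb1, fell in the averaged comparison of limma. B cell markers summed to 610.2 to 740 in E2-treated males against 727 to 992 in oil-treated males, and to 605 to 652 in E2-treated females against 781 to 824 in oil-treated females, and the 1 gene above the filter, Cd79b, fell (limma adjusted p = 0.0199). Monocyte and macrophage markers summed to 2609 to 3091 in E2-treated males against 2847 to 3188 in oil-treated males, and to 2483 to 2806 in E2-treated females against 2933 to 3395 in oil-treated females, with 0 of 2 genes above the filter called by limma and 1 at an unadjusted p under 0.05. Without Lyz2 the other 9 summed to 1051 to 1281 in E2-treated males against 1150 to 1367 in oil-treated males, and to 1221 to 1485 in E2-treated females against 1164 to 1246 in oil-treated females. Ccr2, below the filter, rose in the fit on all genes (log2 fold change 0.58, limma adjusted p = 0.0449), at 105 to 159 in E2-treated males against 88.8 to 92.7 in oil-treated males, and at 111 to 207 in E2-treated females against 86.8 to 91.8 in oil-treated females. The 11 erythroid markers with a probe set summed to 3404 to 3927 in E2-treated males against 3226 to 3833 in oil-treated males, and to 3585 to 4373 in E2-treated females against 3266 to 4344 in oil-treated females, ranges that overlap in both sexes.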
